A study of Mus musculus with 9 samples.

Results

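Iron uptake, storage and heme metabolism were followed through 10 genes, taken by symbol from the deposited count table: Tfrc, Trf, Slc40a1, Slc11a2, Fth1, Ftl1, Aco1, Ireb2, Hmox1 and Fech. All 10 had a row among the 49585 gene rows, and 9 of them had enough counts to be tested. RNA of cultured mouse blood stem and progenitor cells was measured by bulk RNA-seq in 9 libraries, 3 from each of 3 populations separated by flow cytometry. All of them came from wild-type C57BL/6 bone marrow CD34-CD150+KSL cells, where KSL stands for Kit+Sca-1+lineage-, grown in F12 medium with 0.1% polyvinyl alcohol, 1% penicillin and streptomycin, insulin-transferrin-selenium supplement, 100 ng/ml thrombopoietin and 10 ng/ml stem cell factor. The design text gives a culture of 10 days and the growth protocol about a week.

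The first population was CD201+CD150+CD48-KSL (CD201+CD48- below) and the second CD201+CD150+CD48+KSL (CD201+CD48+). The third is CD201-KSL by its treatment label and by the design text, whereas its sample titles add CD150+CD48+, so its exact gate is not settled (CD201-). Stem cells are commonly enriched by CD201, a receptor for protein C, and CD48 is found on more mature progenitors. The supplement supplied transferrin protein to every culture. Labels do not say whether the 3 replicates of a population came from separate cultures or animals, so the p-values measure the spread between these libraries, which may be technical.

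Iron bound to transferrin enters cells through the transferrin receptor, is released in endosomes and crosses their membrane through the metal transporter DMT1, the product of Slc11a2. It is stored in ferritin, a shell of heavy (Fth1) and light (Ftl1) chains, leaves the cell through ferroportin (Slc40a1), or goes into heme in mitochondria, where ferrochelatase (Fech) performs the last step. The iron regulatory proteins, encoded by Aco1 and Ireb2, bind hairpins called iron-responsive elements when iron is scarce, which blocks translation of messages with a hairpin in the 5' UTR and protects the transferrin receptor message, whose hairpins are in the 3' UTR. Heme oxygenase 1 (Hmox1) breaks heme down and releases its iron.

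These hairpins are shown because they are a feature through which some of the members, among them Tfrc, Fth1, Ftl1 and Slc40a1, are known to be regulated together. The GENCODE vM39 canonical transcripts (GRCm39) were searched on the transcript strand for 29 bases with an unpaired C, a stem of 5 paired bases, the loop CAGTGN with a last base other than G, the other side of that stem, and at least 4 of 6 paired bases in the lower stem. Capitals mark the unpaired C and the 6 bases of the loop, and sequences are written as DNA, 5' to 3':
Tfrc 3' UTR element 1: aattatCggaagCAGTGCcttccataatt
Tfrc 3' UTR element 2: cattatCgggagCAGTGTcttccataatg
Tfrc 3' UTR element 3: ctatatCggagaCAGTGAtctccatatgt
Tfrc 3' UTR element 4: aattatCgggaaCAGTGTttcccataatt
Fth1 5' UTR: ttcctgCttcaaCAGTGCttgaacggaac
Ftl1 5' UTR: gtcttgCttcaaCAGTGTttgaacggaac
Slc40a1 5' UTR: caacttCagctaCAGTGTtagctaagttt

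The 4 Tfrc elements lay at bases 3320 to 3348, 3699 to 3727, 3764 to 3792 and 3811 to 3839 of the transcript, so the last 3 sat close together. In Fth1 the element covered bases 87 to 115, in Ftl1 bases 78 to 106 and in Slc40a1 bases 166 to 194, all upstream of the coding sequence. The same pattern was found in 8 of 20696 canonical 5' UTRs (0.0387%) and in 13 of 20718 canonical 3' UTRs (0.0627%). Among these 13, Tfrc alone had more than 1 element. For the other members, no match says only that these letters were not in the canonical UTRs searched.

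Library totals ran from 3810123 to 7072885 counts, and 13663 to 17845 genes were detected per library. Levels are given as CPM, counts scaled to a common total with TMM-scaled library sizes, which compare libraries for 1 gene, and fold changes as log2 ± SE with adjusted p from edgeR's quasi-likelihood test over 11619 genes. In CD201- replicate 3, 584 genes lay over 2-fold from the mean of the other replicates of its group, against 53 to 233 in the other libraries, and a result whose call it changes or whose value it moves by over 1.5 times is given with and without it. Summed CPM of 12 stem cell genes ran from 2662 to 2768 in CD201+CD48-, from 1498 to 1537 in CD201+CD48+ and from 914.3 to 982.7 in CD201- libraries, with Hoxb5 at 0 counts in CD201- cells. Summed CPM of 20 S phase genes ran the other way, from 2861 to 2910, from 3796 to 3951 and from 4831 to 5336. Of the 11 stem cell genes tested, 10 passed as higher in CD201+CD48- than in CD201- cells (90.9%, beside 24.2% of all genes). Meis1 passed as lower, though not with library size alone, and averaged 392.2, 421.0 and 454.2 CPM in CD201+CD48-, CD201+CD48+ and CD201- cells. Vwf, at 714.6, 125.0 and 65.5 CPM, is in both the stem cell and the megakaryocyte lists. Summed CPM of 12 granulocyte genes was 82.9 to 93.4, 106.3 to 121.0 and 111.1 to 124.6 in the same order of populations, with 5, 4 and 3 of the genes at 0. Summed CPM of 12 mast cell genes was 721.1 to 778.6, 655.6 to 679.1 and 633.0 to 688.1, with 4, 3 and 3 at 0. That sum was carried by Kit, itself part of the KSL gate, and Gata2. Among the tested mast cell genes, Kit and Mitf passed as higher in CD201+CD48- than in CD201- cells. Gata2, Gzmb and Cpa3 passed as lower, though Gata2 did not with library size alone. Gzmb averaged 4.57, 1.65 and 31.9 CPM and Cpa3 1.495, 1.95 and 6.78 CPM. The 12 megakaryocyte genes summed to 1498 to 1568, 404.4 to 427.0 and 598.3 to 744.3 CPM, with 0 of them at 0. In bulk RNA, fewer cells of a type and less RNA per cell cannot be told apart.

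Of the 9 members tested, Tfrc, Trf and Fth1 had lower levels in CD201+CD48- cells than in the CD201- population, none was higher and 6 did not pass. Over all genes in that comparison 48.1% passed, 24.2% higher and 23.9% lower, so the members' share was no larger than that of all genes. These 3 genes also had lower levels in CD201+CD48+ cells than in the CD201- population, against a background of 29.1% passing in either direction, 14.8% higher and 14.3% lower. Between the CD201+ populations, Ftl1 was higher and Tfrc and Trf were lower in CD201+CD48- cells, 3 of 9 members, against 15.4% of all genes, 9.05% higher and 6.31% lower. That background depends on the fit: it was 29.0% with these populations fitted alone and 30.0% without CD201- replicate 3, where 3 and 4 of the 9 members passed. Both comparisons with CD201- cells share those 3 libraries, and the populations share libraries across all 3 comparisons.

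For the absence of higher members in the comparisons with CD201- cells, edgeR gave 1 member at an unadjusted p under 0.05 for CD201+CD48- cells and 0 for CD201+CD48+ cells, and DESeq2 and limma gave 0 in both. The median log2 fold change of the members was -0.06, -0.15 and -0.06 in the order above, beside 0.00, -0.00 and -0.01 for all genes. Median sizes without sign were 0.29, 0.24 and 0.27, beside 0.34, 0.23 and 0.17 for all genes. Scaling by library size alone raised the share of higher genes among those passing from 50.3% to 70.2% in CD201+CD48- against CD201- cells and from 50.9% to 76.0% in CD201+CD48+ against CD201- cells. It moved the median of all genes by 0.17 and 0.13 log2 units in these comparisons.

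**Figure D1:**
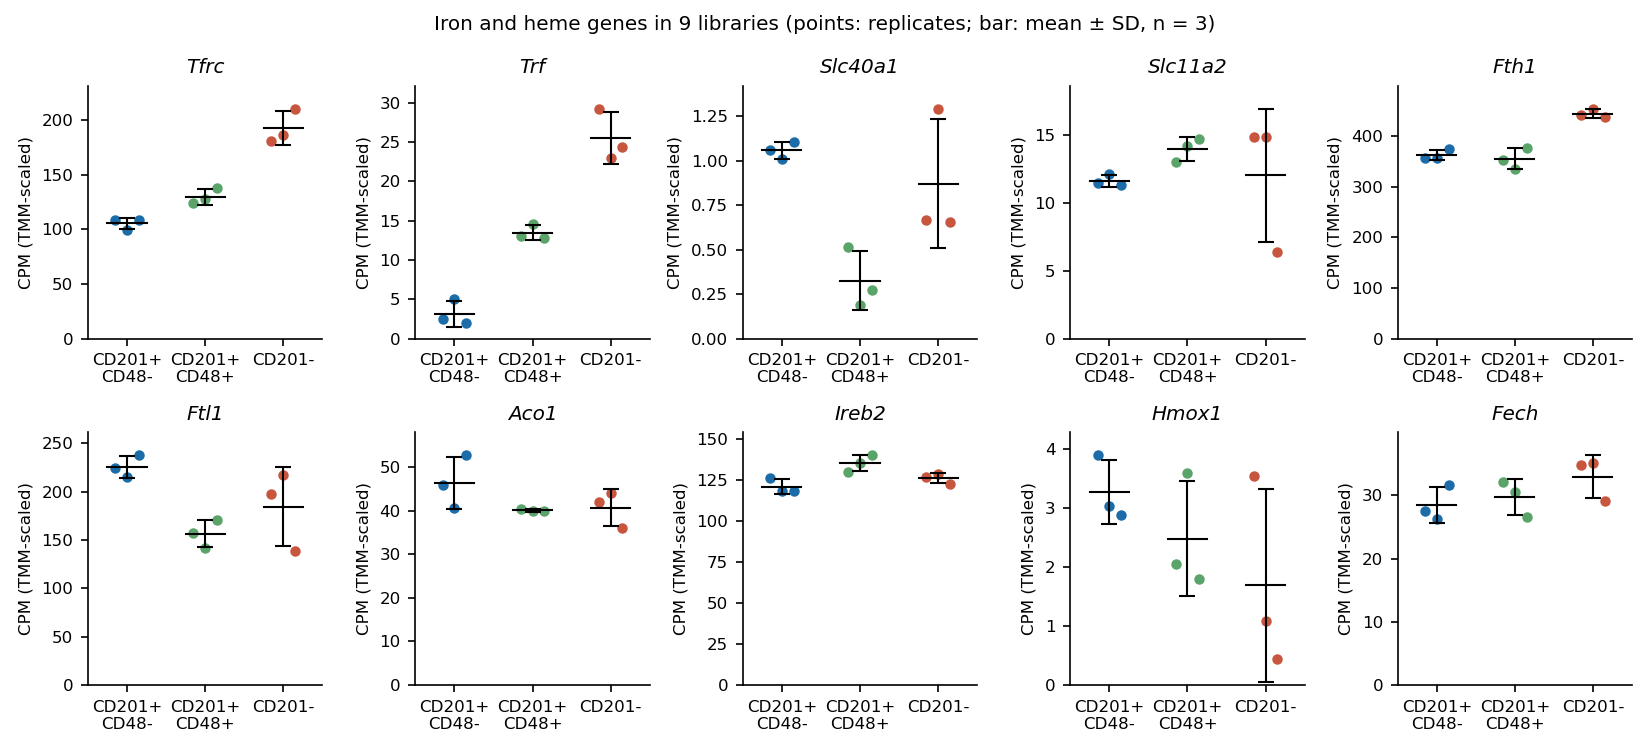
TMM-scaled CPM of the 10 genes (y axis, linear, from 0, a scale per gene) in the 3 populations (x axis), with a point per library and the mean ± SD of 3 libraries. Tfrc and Trf step up from CD201+CD48- to CD201+CD48+ to CD201- without overlap, Fth1 is highest in CD201- libraries, and the Slc11a2 and Ftl1 points of CD201- replicate 3 lie below those of the other CD201- replicates.

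Transferrin receptor 1, encoded by Tfrc (chr16:32608896-32632794, GRCm38.p6), brings iron-loaded transferrin into the cell. Its message stood at 108.6, 99.8 and 108.5 CPM in CD201+CD48-, at 123.7, 127.4 and 137.7 CPM in CD201+CD48+, and at 181.1, 186.6 and 210.2 CPM in CD201- libraries. The 3 populations did not overlap, and CD201+CD48- libraries were lowest. The means were 105.6 ± 5.04, 129.6 ± 7.24 and 192.6 ± 15.5 CPM (SD, n = 3). Tfrc was lower than in CD201- cells by 1.82-fold in CD201+CD48- cells (log2 fold change -0.86 ± 0.08, edgeR adjusted p = 5.1e-07) and by 1.48-fold in CD201+CD48+ cells (-0.57 ± 0.08, edgeR adjusted p = 7.71e-05). Between the CD201+ populations the log2 fold change was -0.29 ± 0.08 (edgeR adjusted p = 0.0219). That smaller difference kept its sign but lost the call when CD201+CD48- replicate 1, 2 or 3 was left out (adjusted p = 0.0611, 0.107 and 0.0605) or CD201+CD48+ replicate 2 or 3 (0.0532 and 0.115).

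Tfrc followed the order of the S phase genes. Against the CD201- population, 20 of the 20 S phase genes passed as lower in CD201+CD48- cells (median log2 fold change -0.77) and 16 in CD201+CD48+ cells (-0.33), and between the CD201+ populations 18 passed as lower in the CD48- one (-0.43). These counts stand beside the 23.9%, 14.3% and 6.31% of all genes that were lower. With library size alone 10 rather than 16 were lower in CD201+CD48+ cells (-0.19). The summed level of granulocyte genes had its lowest values in CD201+CD48- libraries too, while its CD201+CD48+ and CD201- ranges overlapped. The part of these markers in the Tfrc and Trf differences was not tested. Erythroid markers, which belong to a lineage known for high transferrin receptor levels, ran the opposite way: 22 such genes summed to 641.5 to 673.3 CPM in CD201+CD48-, 554.1 to 596.2 in CD201+CD48+ and 424.1 to 470.8 in CD201- libraries. Their sum was carried by Car2 and Hbb-bt, while Hba-a1, Kel and Car1 were at 0 counts in all 3 populations, and 7, 3 and 7 of the 22 were at 0 in the respective populations.

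Transferrin itself, the plasma iron carrier made chiefly by liver, is encoded by Trf (chr9:103208876-103230286). Its message stood at 2.47, 5.05 and 1.99 CPM in CD201+CD48-, at 12.98, 14.55 and 12.79 CPM in CD201+CD48+, and at 29.2, 23.0 and 24.3 CPM in CD201- libraries. The populations did not overlap, and the CD201+CD48- values rested on 43 counts over the group, beside 246 and 350 in the other populations. Means were 3.17 ± 1.65, 13.4 ± 0.966 and 25.5 ± 3.26 CPM (SD, n = 3). Trf had the largest fold change of the members tested in every comparison: 8.29-fold lower in CD201+CD48- cells than in the CD201- population (log2 fold change -3.05 ± 0.23, edgeR adjusted p = 6.29e-08) and 4.36-fold lower than in CD201+CD48+ cells (-2.12 ± 0.25, edgeR adjusted p = 3.21e-05). In CD201+CD48+ cells it was 1.90-fold lower than in CD201- cells (-0.93 ± 0.17, edgeR adjusted p = 0.001). All 3 calls held under the 17 other settings or left-out libraries tried.

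The metal transporter gene Slc11a2 (chr15:100387898-100424209, a span that overlaps the annotated gene Gm5475) did not pass in any comparison. Its levels were 11.48, 12.13 and 11.29 CPM in CD201+CD48-, 12.98, 14.17 and 14.72 in CD201+CD48+, and 14.83, 14.85 and 6.36 in CD201- libraries. CD201- replicate 3 lay below every other library, whereas the other CD201- replicates lay just above every CD201+ library. The log2 fold changes were -0.05 ± 0.24 (edgeR adjusted p = 0.886) and 0.22 ± 0.23 (0.502) against CD201- cells and -0.27 ± 0.23 (0.483) between the CD201+ populations. Without CD201- replicate 3 the first of these was -0.36 and the second -0.08.

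Ferroportin, the iron exporter encoded by Slc40a1 (chr1:45908070-45926532), was near the limit of detection. It had 6, 4 and 5 counts in CD201+CD48-, 3, 1 and 2 in CD201+CD48+, and 3, 6 and 3 in CD201- libraries, so it did not pass the filter on low counts. Without that filter the log2 fold changes were 0.26 ± 0.71 (edgeR adjusted p = 0.921) and -1.36 ± 0.83 (0.326) against CD201- cells and 1.61 ± 0.80 (0.25) between the CD201+ populations. Over each population this came to 1.06 CPM (95% Poisson interval 0.594 to 1.75), 0.326 CPM (0.120 to 0.709) and 0.874 CPM (0.452 to 1.53), where the intervals cover counting error alone. Macrophages are a cell type known for ferroportin and Hmox1. Their 16 markers summed to 22.4 to 25.3 CPM in CD201+CD48-, 10.2 to 15.8 in CD201+CD48+ and 11.6 to 13.6 in CD201- libraries. Cd5l and Marco were at 0 in all populations, and 5, 4 and 9 of the 16 were at 0 in the respective populations. Of the 3 tested, Cd68 and Fcgr1 passed as higher in CD201+CD48- than in CD201- cells (log2 fold change 0.82 and 0.97, edgeR adjusted p = 0.0102 and 0.0458). Both were also higher than in CD201+CD48+ cells (0.73 and 1.60, edgeR adjusted p = 0.0404 and 0.0105), and Csf1r passed in neither comparison. Without CD201- replicate 3, 1 tested marker was higher than in CD201- cells. The part of macrophages in the Slc40a1 and Hmox1 counts was not tested.

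Ferritin heavy chain, the subunit that oxidizes iron for storage, is encoded by Fth1 (chr19:9980600-9985111). Its message stood at 357.9, 357.8 and 374.4 CPM in CD201+CD48-, at 353.7, 336.0 and 377.8 in CD201+CD48+, and at 441.8, 454.2 and 437.7 in CD201- libraries. CD201- libraries lay above all others, and the CD201+ populations overlapped. Relative to the CD201- population, Fth1 was 1.22-fold lower in CD201+CD48- cells (log2 fold change -0.29 ± 0.07, edgeR adjusted p = 0.00435) and lower by a like amount in CD201+CD48+ cells (-0.32 ± 0.07, edgeR adjusted p = 0.00452). Both calls were lost with scaling by library size alone, at -0.12 (adjusted p = 0.18) and -0.19 (0.0634). The log2 fold change between the CD201+ populations was 0.03 ± 0.07 (edgeR adjusted p = 0.844).

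Ferritin light chain, which aids mineral formation in the shell, is encoded by Ftl1 (chr7:45457944-45459886) and had a different order. Its levels were 224.9, 215.0 and 237.6 CPM in CD201+CD48-, 157.0, 142.1 and 170.4 in CD201+CD48+, and 197.9, 217.7 and 138.5 in CD201- libraries. The CD201+ populations did not overlap, and the CD201- libraries spread over the range of both, with replicate 3 lowest. Ftl1 was 1.44-fold higher in CD201+CD48- than in CD201+CD48+ cells (log2 fold change 0.53 ± 0.13, edgeR adjusted p = 0.0143). This call was lost without CD201+CD48- replicate 1 or 3 (adjusted p = 0.0511 and 0.0622) or CD201+CD48+ replicate 2 (0.0751). Against CD201- cells the values were 0.29 ± 0.13 (edgeR adjusted p = 0.0841) for CD201+CD48- and -0.24 ± 0.13 (0.194) for CD201+CD48+ cells. Without CD201- replicate 2 the former was 0.42 and passed (edgeR adjusted p = 0.0137), and without CD201- replicate 3 the former was 0.12 and the latter was -0.40 and passed (edgeR adjusted p = 2.21e-06). The former also passed with library size alone (0.45, edgeR adjusted p = 0.0366) and with no filter on low counts (0.28, 0.00762), and the latter with no filter (-0.23, 0.0479). The summed level of megakaryocyte genes had the same order of populations as the mean of Ftl1. Vwf and Itga2b, with the highest means of that list, each departed from this order. Vwf was lowest in the CD201- population (65.5 CPM, beside 714.6 in CD201+CD48- and 125.0 in CD201+CD48+). Itga2b was highest there (356.1 CPM, beside 298.2 and 79.1). Set against the CD201- population, the 10 tested genes gave 8 higher and 1 lower for CD201+CD48-, and 1 higher and 4 lower for CD201+CD48+. The part of megakaryocyte genes in the Ftl1 differences was not tested. Ferritin genes have processed copies, and the sources used here do not give how reads shared with them were counted, so both ferritin levels are less certain. Of 14 other rows with ferritin names, Ftl1-ps1 held 32 counts in all and 13 held 0.

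**Figure D2:**
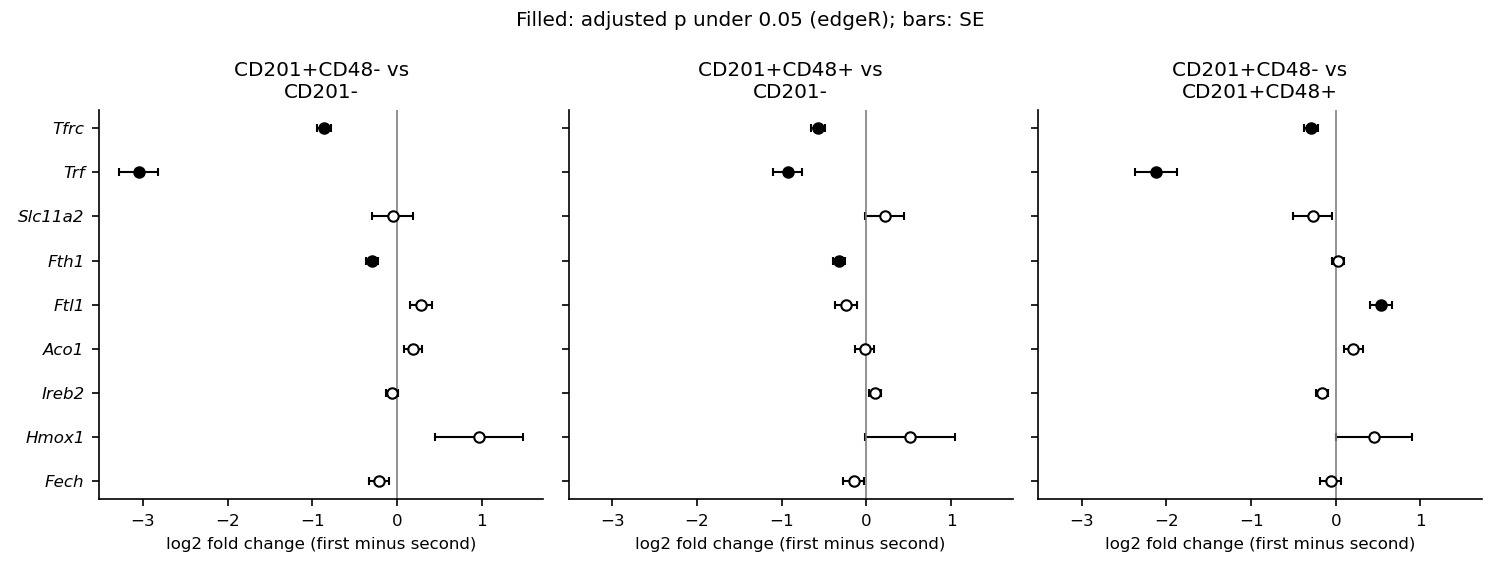
Log2 fold changes (x axis, first population minus second) of the 9 genes tested (y axis) in the 3 comparisons, with bars of ± SE and filled points for an edgeR adjusted p under 0.05. Trf lies farthest from 0 in all 3 comparisons, and Fth1 and Ftl1 fall on opposite sides of 0 in CD201+CD48- against CD201- cells.

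Ratios of counts within a library do not depend on scaling between libraries. The ratio of Tfrc to Fth1 counts was 0.303, 0.279 and 0.290 in CD201+CD48-, 0.350, 0.379 and 0.364 in CD201+CD48+, and 0.410, 0.411 and 0.480 in CD201- libraries. The 3 populations did not overlap, and the mean log2 ratios were -1.78 ± 0.06, -1.46 ± 0.06 and -1.21 ± 0.13 (SD, n = 3). Each pair of populations gave p = 0.1 in a two-sided exact permutation test, the smallest value that 3 against 3 libraries allow, and 0.12 when adjusted over the 6 ratio tests. Without CD201- replicate 3 the log2 difference of CD201+CD48+ from CD201- cells went from -0.25 to -0.17.

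The ratio of Fth1 to Ftl1 counts was 1.59, 1.66 and 1.58 in CD201+CD48-, 2.25, 2.36 and 2.22 in CD201+CD48+, and 2.23, 2.09 and 3.16 in CD201- libraries. CD201+CD48- libraries lay below all others, with log2 differences of -0.50 from CD201+CD48+ and -0.61 from CD201- cells (exact permutation p = 0.1 each, adjusted 0.12). The second was -0.42 without CD201- replicate 3. CD201+CD48+ and CD201- libraries overlapped, with a log2 difference of -0.11 (exact permutation p = 0.9), which was 0.08 without CD201- replicate 3.

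**Figure D3:**
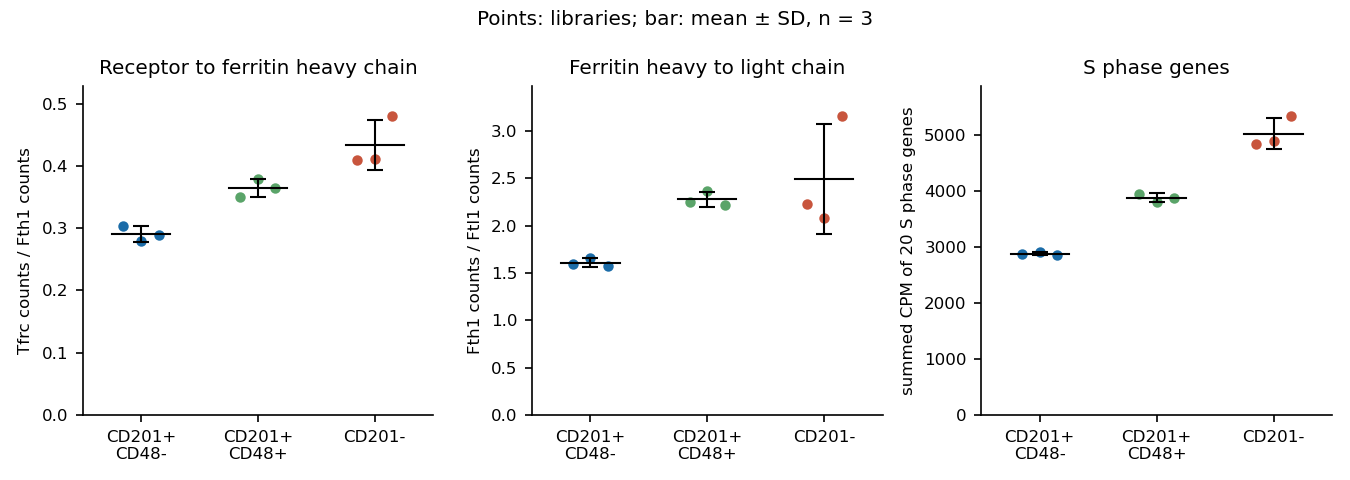
Count ratios of Tfrc to Fth1 and of Fth1 to Ftl1, and the summed CPM of 20 S phase genes (y axes, linear, from 0), in the 3 populations (x axis), with a point per library and the mean ± SD of 3 libraries. The Tfrc to Fth1 ratio and the S phase sum both rise from CD201+CD48- to CD201-, and the Fth1 to Ftl1 ratio of 3.16 belongs to CD201- replicate 3.

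Iron regulatory protein 1, encoded by Aco1 (chr4:40143265-40199009), doubles as the cytosolic aconitase when it carries an iron-sulfur cluster. Its levels were 45.9, 40.7 and 52.7 CPM in CD201+CD48-, 40.5, 39.9 and 39.9 in CD201+CD48+, and 42.1, 44.1 and 35.9 in CD201- libraries. The CD201- values overlapped both other populations, and no comparison passed: the log2 fold changes were 0.19 ± 0.11 (edgeR adjusted p = 0.176), -0.02 ± 0.11 (0.903) and 0.21 ± 0.11 (0.22), the last between the CD201+ populations. The first was 0.11 without CD201- replicate 3, and with library size alone it was 0.36 and passed (edgeR adjusted p = 0.029), while the second was -0.10 without that replicate and 0.11 with library size alone. Iron regulatory protein 2, encoded by Ireb2 (chr9:54862658-54912534), is degraded when iron is plentiful. Its levels were 126.4, 118.5 and 118.7 CPM in CD201+CD48-, 130.4, 135.3 and 140.1 in CD201+CD48+, and 126.8, 129.1 and 123.0 in CD201- libraries. CD201+CD48+ libraries were highest without overlap, but by small steps that did not pass: -0.06 ± 0.07 (edgeR adjusted p = 0.528) and 0.10 ± 0.07 (0.304) against CD201- cells, and -0.16 ± 0.07 (0.15) between the CD201+ populations. The second was 0.23 and passed with library size alone (edgeR adjusted p = 0.0301), under which the first was 0.11. The last passed without CD201- replicate 3 (edgeR adjusted p = 0.0417), a library outside that comparison which enters the shared estimate of spread.

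Heme oxygenase 1, encoded by Hmox1 (chr8:75093618-75100593), had few counts: 22, 12 and 13 in CD201+CD48-, 12, 19 and 13 in CD201+CD48+, and 16, 5 and 2 in CD201- libraries. In CPM these were 3.88, 3.03 and 2.88, then 2.05, 3.59 and 1.79, then 3.54, 1.08 and 0.438. All populations overlapped, and CD201- replicate 1 lay within the range of the CD201+ libraries. The log2 fold changes were 0.97 ± 0.52 (edgeR adjusted p = 0.136) and 0.52 ± 0.53 (0.492) against CD201- cells, and 0.45 ± 0.45 (0.562) between the CD201+ populations. Without CD201- replicate 1 they were 2.08 and 1.63 against CD201- cells and passed (edgeR adjusted p = 0.00607 and 0.044). Without CD201- replicate 3 they were 0.52 and 0.07 (0.32 and 0.922). Leaving out each of the 9 libraries gave 0.52 to 2.08, 0.07 to 1.63 and 0.24 to 0.78 in the 3 comparisons. Ferrochelatase, encoded by Fech on chromosome 18 (chr18:64456542-64489098), inserts iron into protoporphyrin. Its levels were 27.5, 26.3 and 31.7 CPM in CD201+CD48-, 32.1, 30.6 and 26.5 in CD201+CD48+, and 34.7, 35.1 and 29.1 in CD201- libraries. All 3 populations overlapped, and the log2 fold changes were -0.21 ± 0.12 (edgeR adjusted p = 0.178), -0.15 ± 0.12 (0.361) and -0.06 ± 0.12 (0.813). The first was -0.30 and passed without CD201- replicate 3 (edgeR adjusted p = 0.0424), and the second was -0.24 (0.121).

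Per length of the canonical transcript, as RPKM, the CPM divided by that length in kilobases, ferritin messages were the most abundant of the set. Mean Fth1 levels were 391.1, 383.0 and 478.5 RPKM and mean Ftl1 levels 233.1, 161.5 and 190.6 RPKM in CD201+CD48-, CD201+CD48+ and CD201- cells. Tfrc followed at 21.6, 26.5 and 39.3 RPKM and Ireb2 at 20.6, 23.0 and 21.5 RPKM. Thus the RPKM of Tfrc was close to that of Ireb2 in CD201+CD48- cells and above it in CD201- cells. Aco1 stood at 10.1, 8.74 and 8.87 RPKM, below Ireb2 in each population. Trf changed places within the set: at 1.23 RPKM in CD201+CD48- cells it was below Slc11a2 (3.85), Fech (4.40) and Hmox1 (2.07), and at 9.93 RPKM in CD201- cells it was above Slc11a2 (3.97), Fech (5.09) and Hmox1 (1.07). Slc40a1 was lowest in every population, at 0.306, 0.0940 and 0.251 RPKM.

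Across the 9 libraries, the genes whose log2 CPM ran most like Tfrc were Eif4g2, a translation factor relative (Pearson r = 0.992), Cct8, a chaperonin subunit (0.991), and Uba2, part of the enzyme that activates SUMO (0.990). For Trf they were Stk16, a kinase (0.988), Kif20a, a mitotic kinesin (0.987), and Nol11, a ribosome biogenesis factor (0.986). For Hmox1 they were Slc26a6, an anion transporter (0.945), Emid1 (0.945) and Arfgap1, a regulator of vesicle coats (0.944). These values describe likeness over libraries that share a group structure and are no test.

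The wider pathway was followed in 5 lists of genes. Their shares stand beside those of all genes, which were 24.2% higher and 23.9% lower for CD201+CD48- against CD201- cells, 14.8% and 14.3% for CD201+CD48+ against CD201- cells, and 9.05% and 6.31% between the CD201+ populations. Of the list on iron transport and handling, 18 of 26 genes were tested, and in CD201+CD48- against CD201- cells 7 passed as higher and 4 as lower (median log2 fold change 0.34, beside 0.00 for all genes), which is 38.9% and 22.2% of those tested. In CD201+CD48+ against CD201- cells 4 were higher and 3 lower (0.21), or 22.2% and 16.7%, and between the CD201+ populations 2 were higher and 2 lower (0.07), or 11.1% each. Tfr2, the second transferrin receptor, ran opposite to Tfrc: it averaged 50.7 ± 2.35, 41.2 ± 2.37 and 23.6 ± 6.61 CPM (SD, n = 3) in CD201+CD48-, CD201+CD48+ and CD201- cells and was higher than in CD201- cells in both CD201+ populations (log2 fold change 1.11 ± 0.15 and 0.80 ± 0.15). Steap3, the reductase of the transferrin cycle, ran with Tfrc and Trf at 3.46 ± 0.677, 10.0 ± 2.39 and 15.2 ± 2.97 CPM (-2.10 ± 0.25 and -0.61 ± 0.20 against CD201- cells, -1.49 ± 0.26 between the CD201+ populations, all passing). Lrp1, an endocytic receptor that takes up heme bound to hemopexin, was highest in CD201+CD48- cells at 11.3 ± 1.53 CPM, beside 6.62 ± 1.09 and 1.82 ± 0.101 (2.60 ± 0.26, 1.84 ± 0.28 and 0.76 ± 0.20, all passing). Slc39a8, a metal importer, was higher in CD201+CD48- and CD201+CD48+ than in CD201- cells (0.95 ± 0.17 and 0.65 ± 0.16). Without CD201- replicate 3, the counts between the CD201+ populations were 4 higher and 3 lower, and 6 and 3 for CD201+CD48+ against CD201- cells. With scaling by library size alone, the comparison with CD201- cells gave 11 higher and 1 lower for CD201+CD48- cells, and 7 and 1 for CD201+CD48+ cells, and the call of Steap3 in CD201+CD48+ cells was lost.

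In the heme synthesis list 15 of 16 genes were tested, and in CD201+CD48- against CD201- cells 2 passed as higher and 3 as lower (median -0.20), or 13.3% and 20%, both below the shares of all genes. In CD201+CD48+ against CD201- cells 1 was higher and 4 were lower (-0.06), or 6.67% and 26.7%. Alas1, the first enzyme of the route outside red cells, averaged 34.4, 33.6 and 25.6 CPM in CD201+CD48-, CD201+CD48+ and CD201- cells and was higher in CD201+CD48- than in CD201- cells (log2 fold change 0.43 ± 0.16, edgeR adjusted p = 0.0349). Ppox, the enzyme just before ferrochelatase, was higher in both CD201+ populations (0.71 ± 0.19 and 0.60 ± 0.18), whereas Tmem14c, a mitochondrial protein needed for porphyrin transport, was lower in both (-0.52 ± 0.12 and -0.55 ± 0.11). For the CD201+ populations against each other edgeR called 0 of the 15, with 0 at an unadjusted p under 0.05 and 0 by DESeq2 or limma. Leaving out CD201- replicate 3, edgeR called 1 higher. With library size alone the counts against CD201- cells turned to 5 higher and 1 lower for CD201+CD48- cells (median -0.03) and to 3 higher and 1 lower for CD201+CD48+ cells (0.07), where the median turned sign.

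**Figure D4:**
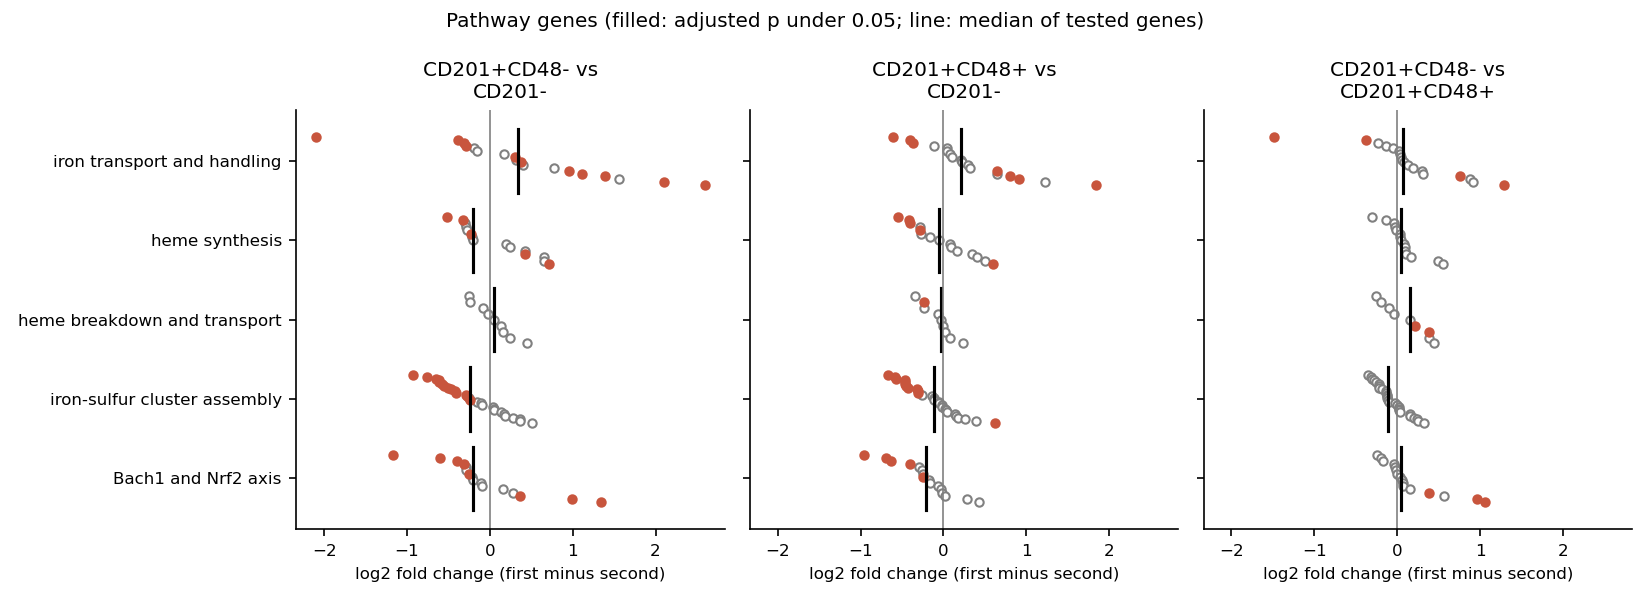
Log2 fold changes (x axis, first population minus second) of every gene tested in the 5 pathway lists (y axis) in the 3 comparisons, a point per gene, filled for an edgeR adjusted p under 0.05, with the median of each list marked. Filled points of the iron-sulfur list lie below 0 in CD201+CD48- against CD201- cells, where 14 of 28 genes passed.

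Of 12 genes of heme breakdown and transport 9 were tested, and edgeR called 0 in CD201+CD48- against CD201- cells, with 1 higher and 0 lower at an unadjusted p under 0.05, 1 higher by DESeq2 and 0 by limma. In CD201+CD48+ against CD201- cells 0 were higher and 1 was lower, with the same counts at an unadjusted p under 0.05 and by limma, and 1 higher and 1 lower by DESeq2. The 1 gene is 11.1% of those tested. Between the CD201+ populations 2 were higher and 0 lower, with the same counts at an unadjusted p under 0.05 and by DESeq2 and limma. The 2, 22.2% of those tested, were Slc48a1, a heme transporter (0.39 ± 0.11), and Por, which feeds electrons to heme oxygenase (edgeR adjusted p = 0.044). Without CD201- replicate 3, 2 genes were higher in CD201+CD48- than in CD201- cells, and in CD201+CD48+ against CD201- cells 1 was higher and 2 were lower. With library size alone 2 were higher in CD201+CD48- than in the CD201- population, and 0 passed in CD201+CD48+ against CD201- cells.

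Of 29 genes of iron-sulfur cluster assembly 28 were tested against CD201- cells: in CD201+CD48- cells 14 passed as lower and 0 as higher (median -0.25), and in CD201+CD48+ cells 11 as lower and 1 as higher (-0.12). The lower genes were 50% and 39.3% of those tested, beside 23.9% and 14.3% of all genes. For the 0, edgeR gave 2 higher at an unadjusted p under 0.05, and DESeq2 and limma gave 0. Hspa9, a mitochondrial chaperone, averaged 626.5 ± 5.78, 798.8 ± 20.7 and 1194 ± 279 CPM (SD, n = 3) in CD201+CD48-, CD201+CD48+ and CD201- cells (log2 fold change -0.93 ± 0.12 and -0.58 ± 0.12 against CD201- cells, both passing). With CD201+CD48- set against CD201+CD48+ cells edgeR called 0 of 28, with 1 higher and 4 lower at an unadjusted p under 0.05 and 0 by DESeq2 or limma, while 5 were lower without CD201- replicate 3, which left 0 higher in CD201+CD48+ against CD201- cells. With library size alone the counts against CD201- cells were 3 higher and 7 lower for CD201+CD48- cells (median -0.08) and 1 higher and 5 lower for CD201+CD48+ cells (0.02), where the median turned sign. S phase genes moved the same way as this list, and their part was not tested.

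The list on Bach1 and Nrf2, regulators of Hmox1 and ferritin genes, had 16 genes, all tested. In CD201+CD48- against CD201- cells 3 were higher and 5 lower (median -0.21), and in CD201+CD48+ against CD201- cells 0 were higher and 5 lower (-0.21). The higher genes were 18.8% and 0% of those tested and the lower genes 31.2% in both, and without CD201- replicate 3 the lower genes were 7 in both. For the 0, edgeR gave 0 higher at an unadjusted p under 0.05, as did DESeq2 and limma after adjustment. Slc7a11, the cystine importer, averaged 32.6 ± 4.51, 37.4 ± 5.73 and 73.1 ± 1.60 CPM (SD, n = 3) in CD201+CD48-, CD201+CD48+ and CD201- cells (log2 fold change -1.17 ± 0.12 and -0.96 ± 0.12 against CD201- cells, both passing). Gclm and Txnrd1, of glutathione and thioredoxin metabolism, were lower in both CD201+ populations too. Nfe2l2, which encodes Nrf2, averaged 119.3, 91.5 and 92.7 CPM and was higher in CD201+CD48- than in CD201- cells (0.36) and than in CD201+CD48+ cells (0.38). Between the CD201+ populations 3 genes (18.8%) were higher and 0 lower, among them Srxn1, a sulfiredoxin (0.97 ± 0.15), and Maff, a partner of Bach1 and Nrf2 (1.06 ± 0.25). For that 0, edgeR gave 1 lower at an unadjusted p under 0.05, and DESeq2 and limma gave 0. Leaving out CD201- replicate 3 gave 1 lower. With library size alone 5 were higher and 3 lower in CD201+CD48- against CD201- cells (median -0.04), and 0 higher and 4 lower in CD201+CD48+ against CD201- cells (-0.08).

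Among genes beyond the members, the hairpin pattern occurred in the 5' UTR of Alas2, the red cell form of the first heme enzyme, which was chosen after its values were seen. Its message was at 0.0738 CPM in CD201+CD48- cells and at 0 counts in the other populations.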

How the data were processed

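Whole-number counts per gene symbol were deposited by the authors for 9 libraries, without normalization. Per the labels' protocols, each library was made from more than 5000 sorted cells with Trizol LS and a SMARTer cDNA kit, and sequenced on a NextSeq instrument as paired 36 nt reads. The submitters' processing notes name mm10 and DESeq2. Aligner, counting program, gene models and strandedness were not given in the sources used here, so counts of overlapping genes are less certain. The deposited normalized signal equalled the counts divided by 1 size factor per library (relative deviation at most 5.1e-10) and was used for the limma alternative alone. Not used were 3 columns that could be tied to no sample.

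Groups were taken from the treatment labels. Genes were kept by filterByExpr with a minimum count of 10, scaled by TMM and tested with edgeR 4.0.16 (glmQLFit and glmQLFTest, robust, all 9 libraries in 1 fit) in R 4.3.3. P-values were adjusted over all 11619 tested genes by the Benjamini-Hochberg method, with a threshold of 0.05. The common biological coefficient of variation was 8.64%. SE was obtained as |log2 fold change| over the root of the F statistic. Alternatives used DESeq2 1.42.0, limma 3.58.1 with a pseudocount of 1, library size alone, no filter, a minimum count of 50, the compared groups alone, a replicate block and leaving out each library. The fit was tested on simulated data. Ratios were tested by exact permutation.

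The members, the pathway and marker lists and the alternatives were chosen with earlier results of these data known. List counts without CD201- replicate 3, with library size alone and by other tools were added after seeing the data. All members are named. List genes were named from the 4 with the smallest p in a comparison, marker genes from those with the highest mean, and, for Tfrc, Trf and Hmox1, the 3 genes with the highest correlation over the 9 libraries. A few genes at 0 counts are named as such, and the tested mast cell, macrophage and granulocyte genes are all named. Lists include 6 genes matched by an older symbol. Coordinates come from RefSeq GRCm38.p6, the assembly of mm10, and transcript sequences and lengths from GENCODE vM39 on GRCm39, whose genome coordinates were not used. Interval widths for low counts cover counting error alone. Python 3.11.15 with matplotlib 3.10.9 drew the figures.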

Additional observations from a re-analysis of the deposited data

How the results depend on the processing

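Trf kept its calls under every alternative tried, and the member changes kept direction and side of the threshold in 424 of the settings and comparisons computed, lost a call in 10, gained one in 11 and turned sign in 11. With library size alone, 2 members (Ftl1 and Aco1) were higher in CD201+CD48- and 1 (Ireb2) in CD201+CD48+ than in CD201- cells, and with no filter 1 was higher in CD201+CD48- cells. Leaving out 1 library gave 0 to 1 higher members in each of the 3 comparisons, and 1 to 3 lower members between the CD201+ populations. Over all genes, library size alone gave 1685 lower in CD201+CD48- against CD201- cells, and 2701 higher and 851 lower in CD201+CD48+ against CD201- cells, by its construction without a composition correction. Fitting the CD201+ populations alone gave 1763 higher and 1576 lower genes between them. Leaving out 1 library gave 1073 to 2115 lower genes in CD201+CD48+ against CD201- cells (1661 with all), and 663 to 1822 higher and 360 to 1712 lower between the CD201+ populations (1052 and 733 with all). The other causes were not tested. Among list counts, DESeq2 called 7 lower iron-sulfur genes in CD201+CD48+ against CD201- cells where edgeR called 11, 1 higher and 1 lower iron transport gene between the CD201+ populations where edgeR called 2 and 2, and 1 higher heme synthesis gene in CD201+CD48- against CD201- cells where edgeR called 2.

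Sign changes concerned values near 0. For CD201+CD48- against CD201- cells these were Slc11a2 (0.11 with library size alone, 0.05 with limma, -0.36 to 0.13 when leaving out 1 library) and Ireb2 (0.11 with library size alone). For CD201+CD48+ against CD201- cells they were Slc11a2 (-0.08 to 0.40 when leaving out 1 library), Aco1 (0.11 with library size alone, 0.01 with a minimum count of 50, -0.10 to 0.04 when leaving out 1 library) and the log2 Fth1 to Ftl1 ratio (-0.22 to 0.08). Between the CD201+ populations they were Fth1 (-0.02 to 0.07) and Fech (-0.14 to 0.00).

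Replicate numbers showed no sign of pairing. Same-numbered libraries of different populations had correlations of their deviations from the group means between -0.113 and 0.0447. Differently numbered libraries had -0.0722 to 0.1. Whether same-numbered libraries share a culture or animal cannot be told from these values. With the replicate block, 0 members were higher and 3 lower in both comparisons with CD201- cells, and 1 higher and 2 lower between the CD201+ populations, as without it. Depth limits Slc40a1 and Hmox1, whose counts per library were 1 to 6 and 2 to 22.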
